A study of Mus musculus with 10 samples.

Results

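Tubb3, Stmn2, Stmn3, Ina, Nefl, Nefm, Map2, Gap43, Dcx and Nptx1 are genes known from developing neurons, and 7 of these 10 genes differed by at least 2-fold between mouse arrays with pluripotency markers and arrays with neural stem cell markers, 4 in one direction and 3 in the other. They were taken by their symbols in the platform annotation, 10 of 18193 measured genes, and were read by 22 of the 45101 probe sets. They were listed with these values in view, because some ran opposite to others between the pluripotent-like and the neural arrays. Their values in the comparisons with the arrays labelled iPS-derived NSC are therefore a description without a test. On those arrays, 10.8% of all genes were at least 2-fold higher and 14.4% at least 2-fold lower than on arrays labelled iPS. Against brain NSC arrays the shares were 11.3% and 14%.

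Each of the 10 Affymetrix arrays was hybridised with RNA of 1 sample, and the groups are those of the sample titles. All cells trace to mice with an Oct4-eGFP transgene (OG2) and the Rosa26 neo/lacZ marker allele, crossed with ICR females. The 3 arrays labelled iPS-derived NSC are titled as neural stem cells (NSC) differentiated from induced pluripotent stem (iPS) cells, by a modified published protocol. The 3 arrays labelled iPS are titled as cells reprogrammed from NSC with a pMX-based retroviral vector for mouse Oct4 alone; per the labels, Oct4-GFP-positive colonies were picked by hand and iPS cells were kept on irradiated mouse embryonic fibroblasts (MEF) with LIF. The 4 brain NSC arrays held NSC derived from adult brain. The labels number the replicates but do not say whether they were separate cultures, colonies or animals, so p-values measure the spread between these samples, which may be technical.

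The markers went against the labels of both reprogrammed groups. All values here are RMA values on the log2 scale, so 1 unit is a 2-fold difference, and errors are SD unless an SE is named. Pou5f1, which encodes Oct4, read 13.29 ± 0.25 (n = 3) on arrays labelled iPS-derived NSC, 4.66 ± 0.15 (n = 3) on those labelled iPS and 4.55 ± 0.05 (n = 4) on brain NSC arrays. Fabp7, a fatty acid binding protein of neural stem cells and radial glia, stood at 4.43 ± 0.21, 14.17 ± 0.02 and 14.45 ± 0.10 in the same order. The pluripotency gene Zfp42 stood at 12.44, 3.54 and 3.50, and the neural progenitor factor Olig2 at 6.53, 12.78 and 12.47. Averaged over 19 measured pluripotency markers, the 3 arrays labelled iPS-derived NSC lay at 11.14 to 11.23, the 3 labelled iPS at 4.84 to 4.88 and the 4 of brain NSC at 4.85 to 4.95. The groups keep their labels throughout, and each direction below is one between arrays so labelled. Lower quartiles of all probe sets were 4.22 to 4.41 across the arrays; a level below its array's quartile is called dim here, and a difference that involves a dim level is not an exact fold. In bulk RNA, fewer cells of a type and less RNA per cell cannot be told apart. A gene's values are those of its brightest probe set, meaning the highest on average over all arrays, unless another is named.

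Neurons build axons and dendrites on microtubules of alpha- and beta-tubulin, which are stabilised by microtubule-associated proteins and dismantled with the help of stathmins, and they fill mature axons with neurofilaments, a class of intermediate filament. Growth cones at the tips of extending axons hold stathmins and the membrane protein Gap43. Such genes serve as neuronal markers in brain, and outside neurons many are held silent by the repressor REST, which binds the RE1 element. Several are also known from dividing neural progenitors or glia.

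RefSeq promoter windows of GRCm38.p6, 250 bases before and 50 after a gene's start, were at hand for 5 of the 10 genes. Tubb3 and Ina are shown because they were high on the arrays labelled iPS-derived NSC, Map2 because it was low there, and Stmn3 because it differed little; the capitals mark CG dinucleotides, the sites of DNA methylation in mammals.
Tubb3, chr8:123411303-123411602, plus strand: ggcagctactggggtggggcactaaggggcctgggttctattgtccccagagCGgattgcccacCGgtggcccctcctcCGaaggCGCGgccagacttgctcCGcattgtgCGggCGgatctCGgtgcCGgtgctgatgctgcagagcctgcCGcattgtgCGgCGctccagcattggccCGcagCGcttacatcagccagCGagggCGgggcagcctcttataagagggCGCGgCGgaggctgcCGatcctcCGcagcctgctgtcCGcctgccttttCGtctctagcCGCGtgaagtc
Ina, chr19:47014431-47014730, plus strand: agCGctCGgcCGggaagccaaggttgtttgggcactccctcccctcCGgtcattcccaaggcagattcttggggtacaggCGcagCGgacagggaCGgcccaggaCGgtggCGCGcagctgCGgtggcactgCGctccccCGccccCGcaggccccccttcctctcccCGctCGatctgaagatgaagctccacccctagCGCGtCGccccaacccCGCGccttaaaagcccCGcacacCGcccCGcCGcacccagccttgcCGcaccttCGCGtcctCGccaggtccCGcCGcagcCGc
Map2, chr1:66175079-66175378, plus strand: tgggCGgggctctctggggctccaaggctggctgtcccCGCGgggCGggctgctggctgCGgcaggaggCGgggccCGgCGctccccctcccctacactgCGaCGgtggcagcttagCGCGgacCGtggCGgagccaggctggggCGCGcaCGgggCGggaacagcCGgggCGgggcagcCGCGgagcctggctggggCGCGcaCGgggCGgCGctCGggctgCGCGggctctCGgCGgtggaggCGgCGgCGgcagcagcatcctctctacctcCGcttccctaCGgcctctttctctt
Stmn3, chr2:181314451-181314750, minus strand: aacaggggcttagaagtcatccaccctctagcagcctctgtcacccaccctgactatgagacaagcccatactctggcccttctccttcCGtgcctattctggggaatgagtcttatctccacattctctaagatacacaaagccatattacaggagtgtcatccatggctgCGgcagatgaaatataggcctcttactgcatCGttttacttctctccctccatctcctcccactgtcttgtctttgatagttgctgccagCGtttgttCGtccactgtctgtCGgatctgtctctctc
Genes that ran opposite shared dense CG in these windows. Map2 had 37 CG dinucleotides, Ina 32 and Tubb3 26, against a median of 7 over all 32851 windows; 4.95%, 8.56% and 15.5% of windows had more. Stmn3 had 6 and each of 2 overlapping Dcx windows 3. The GC box GGGCGG, searched on both strands, stood in the windows of Tubb3, Ina and Map2 and in 35.7% of all windows. CAGCACC and GGACAG, the left and right parts of RE1, were searched the same way: the left part stood in the Tubb3 window alone, at base 130 on the opposite strand (7.14% of all windows), and the right part in those of Tubb3, Ina and Map2 (22.2%). The E-box CAGCTG stood in the Ina window (16.3% of all), the TATA box TATAAA in both Dcx windows (13.6%) and the octamer ATGCAAAT of Oct proteins in none of the 6 (1.74%). These are matches of letters, in a window that leaves out distant elements.

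The 2 microtubule genes Tubb3 and Stmn2 showed the widest positive differences among the 10. Tubb3 encodes class III beta-tubulin, the tubulin most used to stain neurons. Its 1 probe set read 9.50, 8.97 and 9.46 on the arrays labelled iPS-derived NSC, 3.78, 4.09 and 4.05 on those labelled iPS, and 4.20, 4.08, 4.12 and 4.28 on brain NSC arrays. The first group lay far above the others and did not overlap them, while labelled iPS and brain NSC overlapped and were dim on 3 of 3 and 3 of 4 arrays. The difference was 5.34 ± 0.14 (limma SE; 40.5-fold) from labelled iPS and 5.14 ± 0.13 (35.3-fold) from brain NSC. These comparisons share the arrays labelled iPS-derived NSC, so their likeness is not separate evidence, here and for the genes below.

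Stmn2 encodes a stathmin of growth cones that binds tubulin and promotes microtubule disassembly. The brighter of its probe sets over the 10 arrays read 10.16, 10.08 and 9.92 on arrays labelled iPS-derived NSC, 5.41, 5.29 and 5.17 on arrays labelled iPS, and 5.20, 5.02, 5.35 and 5.01 on brain NSC arrays. Again the first group stood alone and the others overlapped. The differences were 4.76 ± 0.12 (27.2-fold) and 4.91 ± 0.11 (30.0-fold), and a second probe set, dim in both of the lower groups, gave 7.34 and 7.36. Stmn3, a closely related stathmin of neurons, did not share this pattern. It read 7.11, 7.04 and 7.32 on arrays labelled iPS-derived NSC, 6.86, 6.57 and 6.99 on those labelled iPS, and 7.75, 7.58, 7.51 and 7.82 on brain NSC arrays. No groups overlapped, with brain NSC highest and labelled iPS lowest, and the differences of the arrays labelled iPS-derived NSC were 0.35 ± 0.13 and -0.51 ± 0.12. The other Stmn3 probe set gave 0.16 and -0.39.

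**Figure D1:**
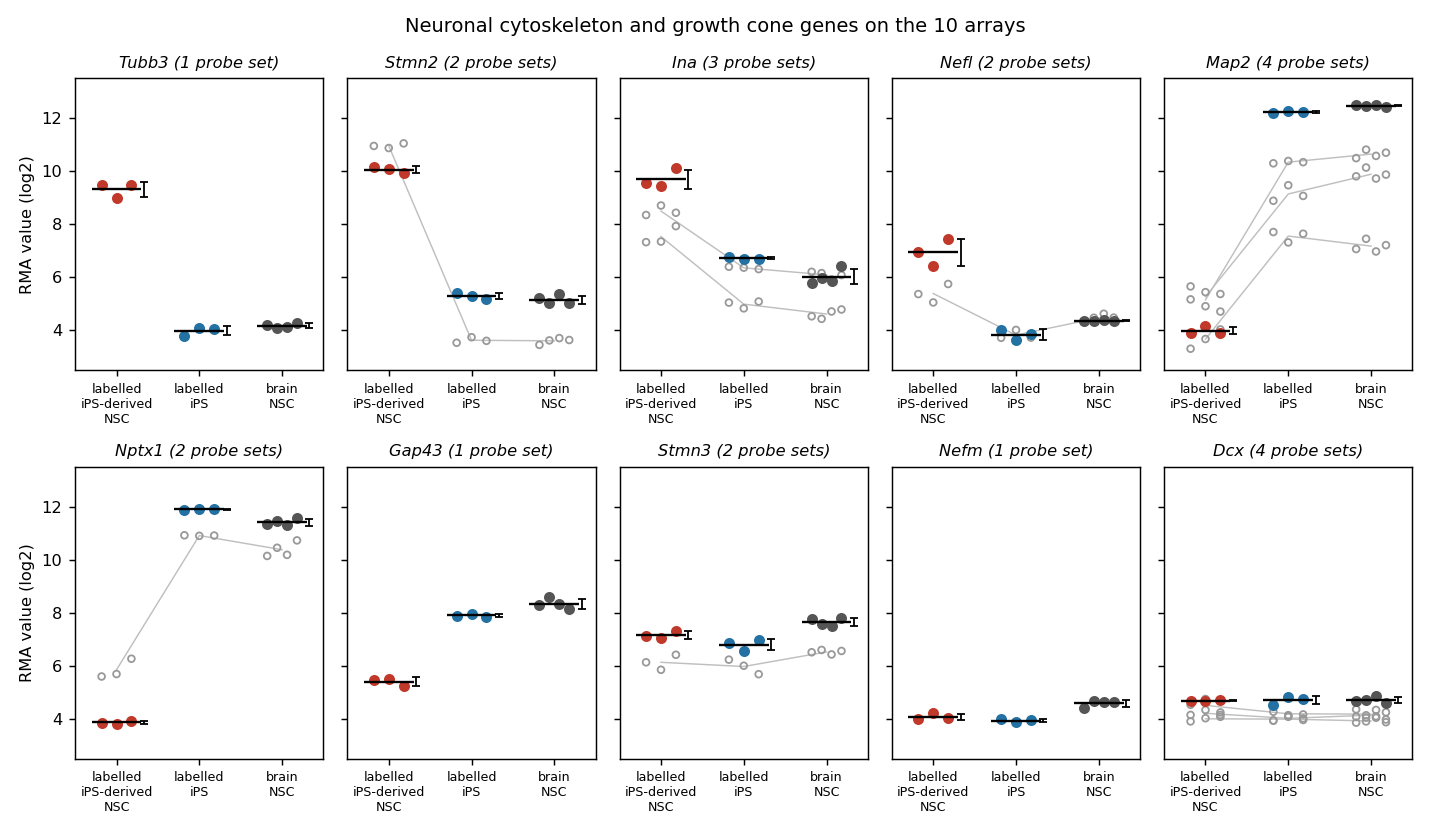
RMA values (log2, vertical axis) of the 10 genes on each array, with the 3 arrays labelled iPS-derived NSC, the 3 labelled iPS and the 4 brain NSC arrays from left to right in each panel; filled points are the brightest probe set with its mean (line) and SD (bar), open points the other probe sets, joined by their group means. Tubb3 stands at 8.97 to 9.50 and Map2 at 3.90 to 4.15 on the arrays labelled iPS-derived NSC, and Dcx lies between 4.54 and 4.86 on all 10 arrays.

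Of the neuronal intermediate filaments, Ina and Nefl were high on the arrays labelled iPS-derived NSC and Nefm was dim there. Ina encodes alpha-internexin, which appears in developing neurons before the neurofilament triplet. It read 9.55, 9.44 and 10.11 on arrays labelled iPS-derived NSC, 6.78, 6.70 and 6.69 on those labelled iPS, and 5.79, 5.98, 5.88 and 6.44 on brain NSC arrays, and no groups overlapped. The differences were 2.97 ± 0.18 (7.85-fold) and 3.68 ± 0.17 (12.8-fold), and its other 2 probe sets gave 2.14 and 2.55 from labelled iPS, and 2.41 and 2.92 from brain NSC.

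Nefl, the light neurofilament chain on which the others assemble, read 6.97, 6.41 and 7.42 on arrays labelled iPS-derived NSC, 4.01, 3.62 and 3.87 on those labelled iPS, and 4.34, 4.35, 4.39 and 4.36 on brain NSC arrays. The first group had the widest spread (SD 0.51) and still lay above every other array, and both Nefl probe sets were dim on all arrays labelled iPS. Its differences were 3.10 ± 0.19 (8.57-fold) from labelled iPS and 2.57 ± 0.18 (5.95-fold) from brain NSC. A second probe set gave smaller differences, 1.57 and 0.92. Nefm, the medium chain, is the next measured gene on chromosome 14 in the RefSeq order, beside Nefl. It read 4.01, 4.21 and 4.03 on arrays labelled iPS-derived NSC, 3.98, 3.87 and 3.97 on those labelled iPS, and 4.41, 4.68, 4.63 and 4.62 on brain NSC arrays, dim on all arrays of the reprogrammed groups. Its differences were 0.14 ± 0.10 and -0.50 ± 0.09. Genes of chromosome 14 with a mean level of at least 7 lay below those of the other autosomes on the arrays labelled iPS-derived NSC, with a median difference of -0.74 from labelled iPS and -0.70 from brain NSC over 274 genes, against -0.11 and -0.04 elsewhere; the part of this in the Nefl and Nefm values was not tested.

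Map2 and Nptx1 ran the other way, by the widest margins of the 10. Map2 encodes a microtubule-associated protein of dendrites, of which short forms are known from immature neural cells. It read 3.90, 4.15 and 3.91 on arrays labelled iPS-derived NSC, 12.21, 12.27 and 12.23 on those labelled iPS, and 12.48, 12.46, 12.48 and 12.43 on brain NSC arrays. On this probe set the first group was dim on every array and every other array was bright. Its differences were -8.25 ± 0.09 (304-fold lower) and -8.48 ± 0.09 (356-fold lower), and its other 3 probe sets ran the same way, between -5.20 and -3.88 from labelled iPS and between -5.50 and -3.51 from brain NSC; of these, 1 was dim on all arrays of the first group and 2 on none, at 4.70 to 5.65.

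Nptx1 encodes neuronal pentraxin 1, a secreted protein that gathers AMPA receptors at synapses. It read 3.86, 3.82 and 3.93 on arrays labelled iPS-derived NSC, 11.90, 11.91 and 11.93 on those labelled iPS, and 11.34, 11.47, 11.30 and 11.58 on brain NSC arrays. On this probe set, too, the first group was dim throughout. The differences were -8.05 ± 0.10 (265-fold lower) and -7.56 ± 0.09 (188-fold lower), and -5.06 and -4.53 by the second probe set, which at 5.60, 5.69 and 6.27 was not dim in the first group. Gap43, a membrane protein of growth cones that is also known from glial progenitors, read 5.48, 5.51 and 5.23 on arrays labelled iPS-derived NSC, 7.89, 7.96 and 7.86 on those labelled iPS, and 8.29, 8.61, 8.34 and 8.16 on brain NSC arrays. No groups overlapped, and the differences were -2.50 ± 0.12 (5.64-fold lower) and -2.94 ± 0.11 (7.68-fold lower).

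Dcx, which encodes doublecortin, a microtubule-associated protein of migrating young neurons, was low and flat. It read 4.68, 4.66 and 4.70 on arrays labelled iPS-derived NSC, 4.54, 4.83 and 4.74 on those labelled iPS, and 4.69, 4.71, 4.86 and 4.59 on brain NSC arrays, and all groups overlapped. Its differences were -0.02 ± 0.10 and -0.03 ± 0.10, and its other 3 probe sets lay between 0.01 and 0.33.

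Counted on the brightest probe sets, 4 of the 10 genes were at least 2-fold higher on the arrays labelled iPS-derived NSC than on those labelled iPS, where 10.8% of all genes were, and 3 were at least 2-fold lower, where 14.4% were. Against brain NSC the counts were again 4, beside 11.3% of all genes, and 3, beside 14% of all genes. These counts restate the choice of the genes. The median difference over the 10 was 0.25 from labelled iPS and -0.27 from brain NSC, against 0.12 and 0.13 over all genes, and the median size of the difference was 3.04 and 3.31, against 0.42 and 0.41.

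**Figure D2:**
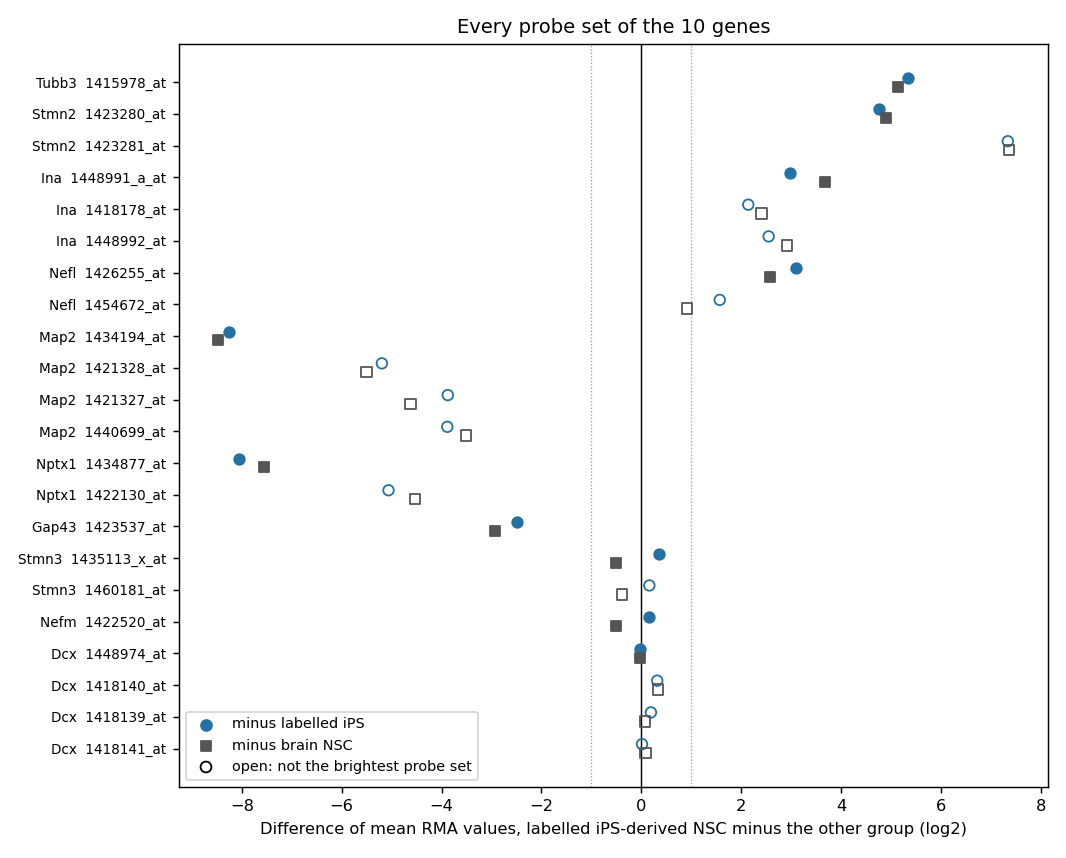
Difference of the mean RMA value (log2, horizontal axis) of the arrays labelled iPS-derived NSC from labelled iPS (circles) and from brain NSC (squares) for each of the 22 probe sets, with open symbols for those that are not a gene's brightest; dotted lines mark 2-fold. Every probe set of Tubb3, Stmn2, Ina and Nefl lies above 0, down to 0.92 for the second of Nefl, and every one of Map2, Nptx1 and Gap43 below 0.

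Markers of other cell types moved with these differences to different extents. Called means a limma adjusted p under 0.05 and at least 2-fold. On the arrays labelled iPS-derived NSC, 10.8% of all genes were called higher and 14.4% lower than on those labelled iPS. Against brain NSC, 11.3% were called higher and 14% lower. These shares stand beside the counts of every list in these comparisons. Of 24 neuron identity genes, 3 were called higher and 1 lower than on labelled iPS arrays, and 2 higher and 1 lower than on brain NSC arrays. The mean level of this list lay at 6.03 to 6.09 on the arrays labelled iPS-derived NSC, 5.84 to 5.89 on those labelled iPS and 5.88 to 5.98 on brain NSC arrays. Of the 24, 3 were dim on all 10 arrays, the synaptic gene Snap25, the glutamate transporter Slc17a6 and the GABA synthesis gene Gad2; others were not, such as Rbfox3, a nuclear protein of mature neurons, at 7.54 ± 0.13, 6.88 ± 0.09 and 6.87 ± 0.11 in the same order of groups. Uchl1, a ubiquitin hydrolase abundant in neurons, was 1.52 ± 0.10 higher than on labelled iPS arrays (limma adjusted p = 1.93e-08), and Elavl2, a neuronal RNA-binding protein also known from germ cells, 1.66 ± 0.13 higher (adjusted p = 8.76e-08). The other Elavl2 probe sets gave 0.80, 1.29, 0.61 and 0.14. Syn2, a synaptic vesicle protein, fell by 2.43 ± 0.18 (limma adjusted p = 3.59e-08), and its other probe sets gave -1.73, -2.59, -3.12, -0.36 and 0.11. Without replicate 2 of the arrays labelled iPS-derived NSC, 2 genes were called lower than in brain NSC.

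Feeder fibroblast markers were uneven among the arrays labelled iPS-derived NSC. Averaged over 14 measured markers, their level was 6.58, 6.28 and 5.73 on replicates 1, 2 and 3 of that group, against 5.30 to 5.35 on arrays labelled iPS and 5.32 to 5.49 on brain NSC arrays. Of the 14, Lum and Fap were dim on all 10 arrays, while Col3a1, a fibrillar collagen, rose by 2.95 ± 0.42 from labelled iPS (limma adjusted p = 3.62e-05; 0.80 on its second probe set) and Col1a2 by 2.83 ± 0.30 (adjusted p = 1.85e-06). The other Col1a2 probe sets gave 3.37 and 0.08. In all, 6 of the 14 were called higher and 1 lower than on labelled iPS arrays (2 lower without the first replicate labelled iPS-derived NSC), and 7 higher and 2 lower than on brain NSC arrays. The gene called lower than on labelled iPS arrays was Prrx1, at -1.95 ± 0.17. Those called lower than on brain NSC arrays were Prrx1 at -2.18 ± 0.16 and Col6a1 at -1.48 ± 0.28. On replicate 3, where the fibroblast level was lowest, Ina and Nefl were highest, Stmn2 was lowest (9.92, against 10.16 and 10.08 on replicates 1 and 2) and Tubb3 lay between (9.46, against 9.50 and 8.97). This order depended on the probe set. The second Stmn2 probe set was highest on replicate 3 (11.05, against 10.95 and 10.87). Another Ina probe set was not highest there (8.43, against 8.35 and 8.71). Whether feeder fibroblasts had any part in the values of the 10 genes was not tested. Leaving out any 1 array kept the difference from labelled iPS at 5.24 to 5.51 for Tubb3, 4.70 to 4.83 for Stmn2, 2.77 to 3.10 for Ina and 2.85 to 3.36 for Nefl. Of 10 measured neural crest and peripheral neuron genes, 1 was called higher than on labelled iPS arrays and 2 than on brain NSC arrays (1 without replicate 2 or 3 of the arrays labelled iPS-derived NSC or replicate 2 or 3 of brain NSC), none was called lower, and Pou4f1 and Tfap2b were dim on all 10 arrays; Foxd3, a factor of neural crest and of pluripotent cells, rose by 2.14 ± 0.16 from labelled iPS (adjusted p = 4.04e-08).

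The rest of the cytoskeleton was measured through lists of related genes, which were written with earlier results of these data known. Of 14 tubulins other than Tubb3, 1 was called higher and 4 lower on the arrays labelled iPS-derived NSC than on those labelled iPS, with the same counts against brain NSC. Tuba4a, an alpha-tubulin, rose to 11.73 ± 0.17 on the arrays labelled iPS-derived NSC, against 7.17 ± 0.07 on those labelled iPS and 7.43 ± 0.10 on brain NSC arrays, a difference of 4.56 ± 0.11 from labelled iPS (limma adjusted p = 2.52e-13); its other probe sets gave 5.98 and 0.36. Tubb2a, a beta-tubulin abundant in neurons, stood at 9.78 ± 0.13, 12.94 ± 0.12 and 12.84 ± 0.06 in that order and fell by 3.16 ± 0.10 from labelled iPS (adjusted p = 5.95e-12). The Tubb2a probe set is of a kind that can match several transcripts, and its other probe set gave -0.27. With such probe sets left out, 2 tubulins were called lower in each comparison.

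Among 26 genes of microtubule-associated proteins other than the 10 genes, 3 were called higher and 5 lower than on labelled iPS arrays, and 3 higher and 9 lower than on brain NSC arrays. With the mean of a gene's probe sets the lower counts were 3 and 4. Camsap3, which caps microtubule minus ends in epithelial cells, rose by 5.02 ± 0.11 from labelled iPS (limma adjusted p = 2.20e-13) and Map7, also known from epithelia, by 3.49 ± 0.10 (adjusted p = 2.82e-12). Ttll7, which adds glutamate chains to tubulin, fell by 4.42 ± 0.15 (adjusted p = 1.52e-11), though its second probe set gave -0.32. Dclk1, a doublecortin-like kinase, fell by 3.83 ± 0.16 from brain NSC (adjusted p = 6.12e-11), and its other 8 probe sets, too, were below 0.

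Of 13 other intermediate filament genes, 3 were called higher and 2 lower in each comparison. Nefh, the heavy neurofilament chain, stood at 8.11 ± 0.47 on the arrays labelled iPS-derived NSC, against 3.81 ± 0.13 on those labelled iPS and 3.66 ± 0.04 on brain NSC arrays, a rise of 4.30 ± 0.18 from labelled iPS (limma adjusted p = 8.13e-11). The simple epithelial keratins Krt18 and Krt8 rose by 4.39 ± 0.12 (adjusted p = 1.48e-12) and 3.65 ± 0.12 (adjusted p = 6.83e-12). Vim and Nes, the filaments of neural progenitors, were the 2 called lower than on labelled iPS arrays, at -2.65 (adjusted p = 1.48e-10) and -2.79 (adjusted p = 4.64e-09); with the mean of a gene's probe sets 1 was called lower than in brain NSC.

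The 24 other growth cone and axon growth genes leaned towards lower values, with 3 called higher and 12 lower in each comparison and a median difference of -1.14 from labelled iPS, against 0.12 over all genes. Nrcam, an adhesion molecule of axons, stood at 3.71 ± 0.21 on the arrays labelled iPS-derived NSC, against 9.47 ± 0.04 on those labelled iPS and 9.64 ± 0.14 on brain NSC arrays, and fell by 5.76 ± 0.12 from labelled iPS (limma adjusted p = 8.44e-14). Its other 3 probe sets gave -3.13, -0.21 and -0.45. Dpysl2, which binds tubulin in growth cones, fell by 5.02 ± 0.13 (adjusted p = 5.70e-13) on its brightest probe set, while its second gave -0.05. Of the 7 measured pentraxin genes and partners, 1 was called in each direction: Nptx2, the relative of Nptx1, rose by 2.61 ± 0.14 from labelled iPS (adjusted p = 1.81e-09) and Gria4, an AMPA receptor subunit, fell by 3.88 ± 0.14 (adjusted p = 2.14e-11).

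**Figure D3:**
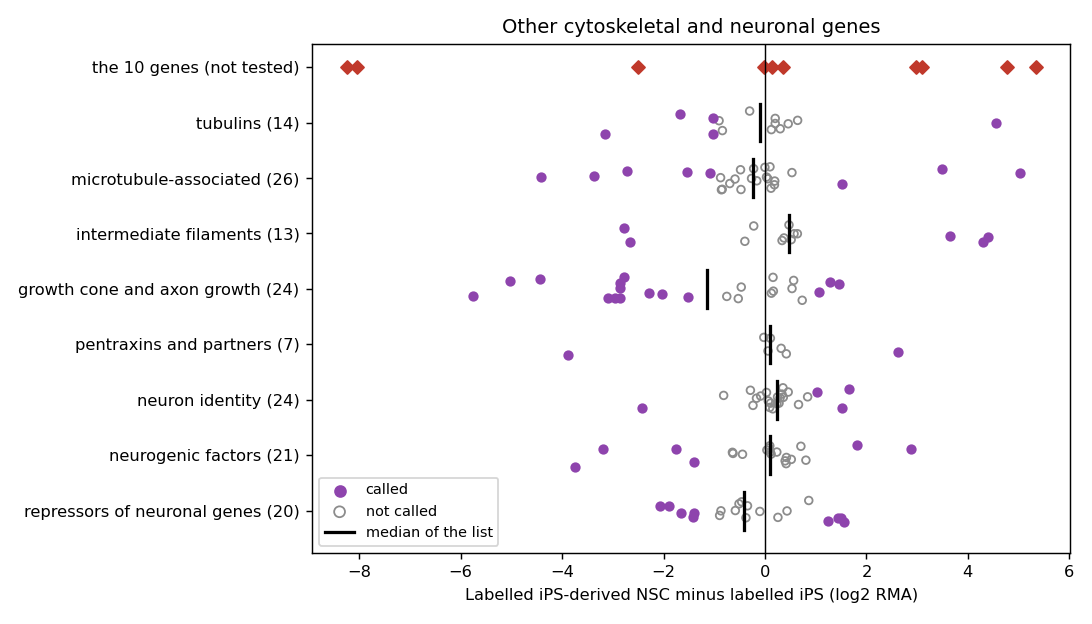
Difference of mean RMA value, arrays labelled iPS-derived NSC minus those labelled iPS (log2, horizontal axis), for the 10 genes (diamonds, without a test) and for each measured gene of 8 lists, with the number of genes in parentheses; filled points were called, open points not, and a bar marks the median of a list. The growth cone list has its median at -1.14, with 12 genes called lower and 3 higher, and the 10 genes spread from -8.25 to 5.34.

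Neurogenic transcription factors were called in both directions, 2 higher and 4 lower of 21 measured than on labelled iPS arrays, and 2 higher and 3 lower than on brain NSC arrays. Of all genes, 10.8% were called higher and 14.4% lower than on labelled iPS arrays, and 11.3% and 14% than on brain NSC arrays. Eomes, a factor of intermediate progenitors and of early mesendoderm, rose by 2.89 ± 0.13 from labelled iPS (limma adjusted p = 1.85e-10). Sox11, which promotes neuronal gene expression, fell by 3.19 ± 0.17 (adjusted p = 1.06e-09), and Hes6 by 3.75 ± 0.14 (adjusted p = 2.10e-11). Of 20 repressors and cofactors that act on neuronal genes, 4 were called higher and 5 lower than on labelled iPS arrays, and 3 higher and 8 lower than on brain NSC arrays. Rest itself stood at 10.58 ± 0.18 on the arrays labelled iPS-derived NSC, against 9.09 ± 0.18 on those labelled iPS and 7.76 ± 0.15 on brain NSC arrays. It rose by 1.49 ± 0.13 from labelled iPS (adjusted p = 2.35e-07) and by 2.82 ± 0.12 from brain NSC (adjusted p = 1.12e-10), and its other 3 probe sets gave 2.95, 0.72 and 1.98 from labelled iPS. Rest was high on the same arrays as Tubb3, Stmn2, Ina and Nefl and on those where Map2 and Nptx1 were dim. Of the small phosphatases recruited by REST, Ctdsp2 fell by 2.08 ± 0.12 (adjusted p = 2.29e-09) and Ctdsp1 fell by 1.90 ± 0.21 (adjusted p = 2.18e-06) from labelled iPS; the other 2 Ctdsp2 probe sets gave -0.55 and -0.49.

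Of the remaining lists, those of pluripotency and neural stem cell genes followed the markers given at the start. All 19 pluripotency genes were called higher on the arrays labelled iPS-derived NSC in both comparisons, and of 16 neural stem cell genes 12 were called lower and 1 higher than on labelled iPS arrays and 13 lower and 1 higher than on brain NSC arrays. Of 12 astrocyte genes, 1 was called higher and 5 lower in each comparison. Of 9 oligodendrocyte lineage genes, 1 was called higher in each, with 2 lower than on labelled iPS arrays and 1 lower than on brain NSC arrays. Their median difference was 0.22 from labelled iPS and 0.19 from brain NSC, against 0.12 and 0.13 over all genes. Of 11 epiblast and germ layer genes, 6 were called higher and 2 lower than on labelled iPS arrays, and 7 higher and 2 lower than on brain NSC arrays.

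The comparison of arrays labelled iPS with brain NSC was not named in the rule that chose the genes. It was tested with limma, adjusted over all 18193 genes. The values of all groups were in view when the genes were listed, so these p-values are not independent of the choice. Of the 10 genes, 5 passed at an adjusted p under 0.05, against 20.4% of all genes. Nptx1 and Ina were higher on the arrays labelled iPS (11.1% of all genes passed in that direction) and Stmn3, Nefm and Gap43 lower (9.29%). None of the 10 reached 2-fold as well, which 1.84% of all genes did (0.951% higher and 0.89% lower), while 5919 of all genes had an unadjusted p under 0.05. Arrays of the groups did not overlap for 7 of the 10 genes and for 28.3% of all genes. Tested against a minimum of 1.5-fold, 0 of the 5 passed. The median size of the difference was 0.47 over the 10 and 0.15 over all genes.

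Stmn3 had the largest of these differences on the brightest probe sets: the arrays labelled iPS were 0.86 ± 0.12 lower than brain NSC (limma SE, adjusted p = 0.000335), but this probe set is of a kind that can match several transcripts, and the second gave -0.55 with an adjusted p of 0.0172 over all probe sets, a smaller difference than that of Nefm. Nefm was 0.65 ± 0.09 lower (adjusted p = 0.000481), between levels that are dim on one side. Gap43 fell by 0.44 ± 0.11 (adjusted p = 0.0148), with an adjusted p of 0.0524 without replicate 1 and 0.0666 without replicate 3 of the arrays labelled iPS. Nptx1 rose by 0.49 ± 0.09 (adjusted p = 0.00213), and its second probe set by 0.53 (adjusted p = 0.0404). Ina rose by 0.70 ± 0.17 (adjusted p = 0.0108), but its brightest probe set is of a kind that can match several transcripts, and its others gave 0.27 and 0.37, with adjusted p of 0.108 and 0.103.

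The other 5 genes did not pass, which does not show that they were alike. Nefl, dim on the arrays labelled iPS, differed by -0.53 ± 0.18 (limma adjusted p = 0.0552), and its second probe set passed at -0.65 (adjusted p = 0.00758 over all probe sets). Nefl also passed without replicate 2 or replicate 3 of the arrays labelled iPS-derived NSC, which enter only through the shared spread, with adjusted p of 0.00983 and 0.0154. Map2 differed by -0.23 ± 0.09 (adjusted p = 0.0812), with probe sets that disagreed in direction, from -0.74, which passed, to 0.38, which did not. For Tubb3 the difference was -0.20 ± 0.13 (95% interval -0.48 to 0.08), for Stmn2 0.14 ± 0.11 (-0.09 to 0.38) and for Dcx -0.01 ± 0.10 (-0.22 to 0.20). Fitted one by one, 9 of the 22 probe sets passed, 3 higher and 6 lower, where 18% of all 45037 probe sets passed.

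**Figure D4:**
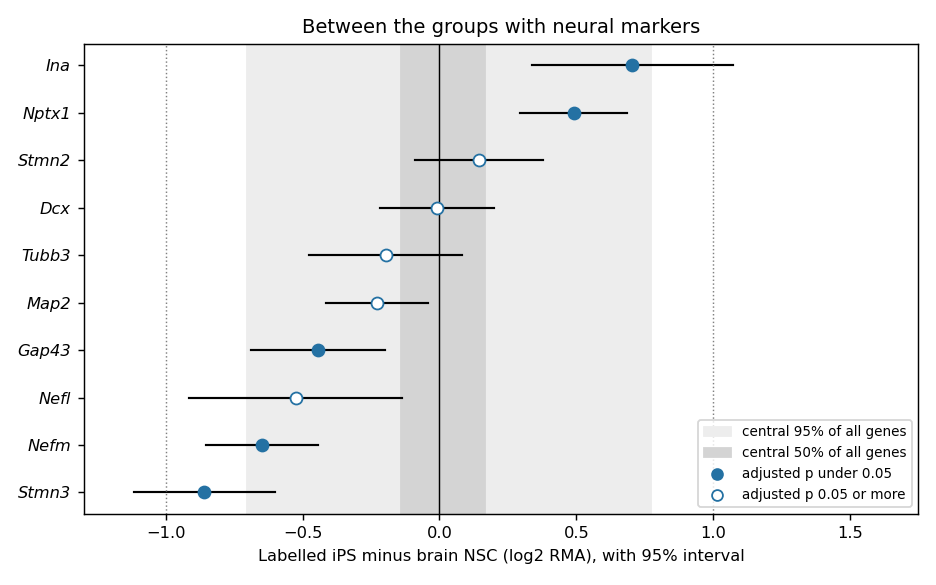
Difference of mean RMA value, arrays labelled iPS minus brain NSC (log2, horizontal axis), of each of the 10 genes with its 95% interval from limma; filled points have an adjusted p under 0.05, dotted lines mark 2-fold, and grey bands hold the central 50% and the central 95% of all 18193 genes. Ina at 0.70 and Nptx1 at 0.49 are filled on the right, and Stmn3 at -0.86, Nefm at -0.65 and Gap43 at -0.44 on the left.

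Other measures moved with this comparison. The difference between the 3-prime and 5-prime probe sets of Actb, a sign of RNA integrity, was 0.50 to 0.67 on arrays labelled iPS and 0.15 to 0.43 on brain NSC arrays, with 0.42 to 0.57 on the arrays labelled iPS-derived NSC; its part in these differences was not tested. On chromosome 8, which holds Tubb3, 502 genes with a mean level of at least 7 had a median difference of 0.44 between labelled iPS and brain NSC, and 90% of them were above 0, against a median of 0.03 on the other autosomes. Tubb3 itself differed by -0.20, but between mostly dim levels, where RMA compresses differences, so it cannot be set against these genes. Few of the listed genes were called here, where 1.84% of all genes were. No tubulin, microtubule-associated, intermediate filament, growth cone, pentraxin or neurogenic gene was called, nor any pluripotency, oligodendrocyte lineage, fibroblast or neural crest gene. Without replicate 4 of brain NSC, 1 tubulin was called higher and 1 microtubule-associated gene lower. Of the neuron identity genes Elavl2 was called lower, at -1.06 ± 0.12 (limma adjusted p = 8.80e-05), with 0 genes called without replicate 2 of the arrays labelled iPS or replicate 1 of brain NSC, with averaged probe sets, without probe sets that can match several transcripts, or against a 1.5-fold minimum. Of the repressors, Rest rose by 1.33 ± 0.12 on its brightest probe set (adjusted p = 1.40e-05) and gave -0.06, 0.24 and 0.18 on the others; it was not called with averaged probe sets. Hes5 and Id3, targets of Notch and BMP signalling that hold back neuronal differentiation, fell by 3.58 ± 0.19 (limma adjusted p = 7.49e-08) and 1.62 ± 0.09 (adjusted p = 1.95e-07). The Hes5 probe set is of a kind that can match several transcripts, and the other Hes5 probe set gave -1.67. Without replicate 4 of brain NSC 2 repressors were called higher. Hes5 was also the 1 neural stem cell gene called lower (2 genes without replicate 1 of the arrays labelled iPS, or without replicate 2 or 4 of brain NSC). Of the astrocyte genes 1 was called in each direction, the lower one, Apoe, not against a 1.5-fold minimum. The epiblast gene Otx2 was called higher, at the 2-fold limit. No epiblast gene was called without replicate 2 or 3 of the arrays labelled iPS or replicate 1 or 4 of brain NSC. The same held against a 1.5-fold minimum, after quantile normalization or with the replicate number as a block. Apoe and Otx2 each have only a probe set of a kind that can match several transcripts. Without such probe sets these genes were not measured, so that setting cannot check their calls.

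For each gene, the most similar profiles were sought among all others, as the root mean square difference between the 10 values after each gene was centred on its own mean. Tubb3 was closest to Icam1, a cell adhesion receptor, at 0.11 log2 units, then to Ripk4 at 0.18. For Stmn2 the closest were H2-Q10 at 0.11 and Gm7969 at 0.15, for Ina Lama3, a laminin chain of epithelia, at 0.16 and Alpl, the alkaline phosphatase that stains pluripotent colonies, at 0.19, and for Nefl 2010204K13Rik at 0.18 and Tgm1 at 0.20. None of these 8 is among the listed neuronal genes, but the lists hold few of the 18193 genes, so nothing is drawn from this. The gene closest to Map2 was Gpm6b, a proteolipid of neural membranes, at 0.18, followed by Gpm6a at 0.28, and those closest to Nptx1 were Spon1 at 0.17 and again Gpm6b at 0.29. Gap43 was closest to Micu2 at 0.09 and Ap5m1 at 0.13, both on chromosome 14. Stmn3, Nefm and Dcx, whose ranges were narrow, were closest to Kank4, Wdr60 and Krt88 at 0.12, 0.07 and 0.05, and next to S100a10, Npl and Pip at 0.14, 0.08 and 0.06. Neighbouring genes on the chromosomes did not all move like the 10. Mc1r and Def8 beside Tubb3 differed by -0.13 and 0.84 (arrays labelled iPS-derived NSC minus those labelled iPS), and Crygf and Unc80 beside Map2 by -0.03 and -0.02. For Il7 and Hey1 beside Stmn2 the differences were 0.18 and -1.71, and for Lsamp and 4932412D23Rik beside Gap43 -1.23 and 0.25. Endov and Rptor beside Nptx1 differed by -0.94 and -0.45, in the same direction as Nptx1. Beside Ina, Nt5c2 and Pcgf6 differed by 1.24 and 1.97, in the same direction as Ina.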

How the data were processed

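The log2 values were deposited by the authors as RMA output, 1 value per probe set and array, per the submitters' processing notes; a version was not given in the sources used here. This method makes the arrays' distributions alike, which largely removes a shift shared by most genes, and it compresses differences between dim genes. Arrays have no read depth; their number limits the precision.

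Of 45101 probe sets, 34945 had 1 gene symbol in the platform annotation, 932 several, 9160 none, and 64 were controls. For each of 18193 genes the brightest probe set, that of highest mean level over all arrays, was taken. Group means were fitted in limma 3.58.1 under R 4.3.3 (lmFit, eBayes; 7 residual and 5.95 prior degrees of freedom) with Benjamini-Hochberg adjustment over all genes, after a test on simulated data. Python 3.11.15 served for promoters, tables (pandas 2.3.3, numpy 2.4.6) and plots (matplotlib 3.10.9).

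The 10 genes and the 15 other lists were chosen with earlier results of these data known. Named were the 10 genes with every probe set, up to 3 called genes per list and comparison with the largest difference, Rest, 4 genes for the label check and the 2 closest profiles per gene; Rbfox3, dim markers, chromosome neighbours, promoter motifs, Vim and Nes were picked after values were seen. Alternatives changed the choice of probe sets, scaling, filter, variance model, samples or test, or left out 1 array.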

Additional observations from a re-analysis of the deposited data

How the results depend on the processing

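No difference past its threshold changed direction under the alternatives run; that of Dcx, near 0 in every comparison, lay on both sides of 0. Across the 3 comparisons, 536 of 571 values of the 10 genes kept their side of the threshold or moved by less than the spread between arrays.

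The numbers of genes called between labelled iPS and brain NSC depended most on the setting. Called higher were 173 genes, with 110 when a gene's probe sets were averaged, 80 when tested against a 1.5-fold minimum and 332 with the replicate block; called lower were 162, with 103 against the 1.5-fold minimum. Leaving out each array in turn gave 141 to 332 called higher, the most without replicate 4 of brain NSC, and 155 to 205 called lower. Replicate number 4 occurs only in brain NSC, so the block, too, takes that array out of the comparison. The replicate block and the fit without that array are therefore not separate checks of this count. Of the 10 genes, 5 had an adjusted p under 0.05, 4 to 6 when an array was left out, and 0 against a 1.5-fold minimum. The cause was not tested.

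For single genes between labelled iPS and brain NSC, Ina had 0.27 with an adjusted p of 0.0975 without probe sets that can match several transcripts. Nefl passed with averaged probe sets (adjusted p = 0.0136), a trended robust prior (0.0491), only the arrays of both groups (0.0054) and the replicate block (0.0249), and Map2 passed after quantile normalization (0.0498). Nefl, Nefm and Dcx fell under a minimum mean level of 5 and have no value there. Same-numbered arrays correlated at -0.21 to 0.13 in their deviations from the group means, and differently numbered arrays at -0.16 to 0.32. With so few arrays in a group, this cannot tell whether the replicate numbers pair the samples. Fitting every probe set as a feature of its own was an alternative chosen after seeing the data.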
